A study of Mus musculus with 24 samples.

Results

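The 10 genes described here encode the core proteins of the microRNA and RNA interference pathway in mouse granulosa cells, the steroid-producing cells around the oocyte in an ovarian follicle. They were chosen by name as the rows of the count table with the symbols Drosha, Dgcr8, Dicer1, Ago1, Ago2, Ago3, Ago4, Tnrc6a, Tnrc6b and Tnrc6c. All 10 were among the 39253 rows of the table, and all 10 were among the 15405 genes with enough counts to test. The siRNA used to lower Nts in these cultures itself works through Argonaute proteins, so every culture, controls included, had been given a small RNA that enters this machinery.

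The study isolated granulosa cells from C57BL/6 mice at 23 days of age, 48 h after a dose of PMSG, a gonadotropin that makes follicles grow, and pooled the cells of 2 mice for culture. Cells were transfected for 3 h with an siRNA to mouse Nts (siNTS), the gene for the peptide neurotensin, or with a negative control siRNA (siNC). They were then given human chorionic gonadotropin (hCG), a ligand of the luteinizing hormone receptor that triggers ovulation, or plain medium, for 12 h or 4 h. The 24 mRNA libraries form 6 groups of 4: siNTS with hCG, siNC with hCG and siNC in plain medium (control), each at 12 h and at 4 h, and each with libraries labelled A_1, A_2, B_2 and B_3 from 3 culture dates. Cells with siNTS and no hCG, and cells without any siRNA, were not analysed here, so the data compare 2 siRNAs only in the presence of hCG and do not measure the effect of transfection.

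Drosha and its RNA-binding partner Dgcr8 form the nuclear microprocessor, which cuts primary microRNA transcripts into hairpins. Dicer1 trims the exported hairpins to short duplexes, and one strand of each duplex is loaded into an Argonaute (Ago1 to Ago4), of which Ago2 is the one best known for slicing a fully matched target such as that of an siRNA. The Tnrc6 proteins, the GW182 family, bind Argonautes and recruit the enzymes that shorten and decap the target mRNA. In mouse ovary, loss of Dicer1 in the somatic cells is known to impair female fertility.

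The libraries held 26.2 M to 45.4 M estimated counts (median 39.2 M). Single members held between 145 and 9458 estimated counts in a library, the lowest in Ago4 and the highest in Tnrc6b. Abundance is given in CPM, the counts scaled to library size with TMM factors, as mean ± SD over 4 libraries, and differences as log2 fold changes ± standard error from edgeR's quasi-likelihood test, adjusted over all 15405 genes, with a threshold of 0.05. The siRNA target Nts measured 0.0764 to 2.73 CPM with siNTS and 1.49 to 9.67 CPM with siNC after 12 h of hCG, and 1.99 to 42.9 CPM with siNTS and 16.1 to 180 CPM with siNC after 4 h of hCG. Of the markers of granulosa cells, Inha measured at least 688 CPM and Foxl2 at least 64.9 CPM in every library. Single defining markers of other cells were low in every library, with at most 0.395 CPM of Ptprc (leukocytes), 0.376 CPM of Insl3 and 1.6 CPM of Cyp17a1 (theca cells), 1.49 CPM of Pecam1 (endothelium) and 2.55 CPM of Zp3 (oocyte). Whole lists were higher: 5 erythrocyte genes summed to 101 to 4280 CPM, largely globins (Hbb-bs 47.5 to 2010 CPM), 5 smooth muscle genes to 24 to 118 CPM (Acta2 14.3 to 83.2 CPM, Myh11 at most 0.914 CPM), 8 oocyte genes to 0.997 to 23.1 CPM, and 5 theca and interstitial genes to 190 to 1900 CPM, led by Aldh1a1.

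The libraries also differed in how well long genes were represented. A length index was taken as the median log2 deviation of the longest 10% of genes (exon length of at least 10306 bases) minus that of the shortest 10% (at most 1926 bases), with the 10 members left out. The index averaged −0.25 ± 0.64 with siNTS and hCG, −0.13 ± 0.56 with siNC and hCG and 0.28 ± 0.57 in controls at 12 h. At 4 h it averaged 0.10 ± 0.64 with siNTS and hCG, 0.19 ± 0.33 with siNC and hCG and −0.18 ± 0.75 in controls (SD, n = 4 each). Libraries labelled A_1 were the lowest of their group in 4 of the 6 groups and the highest among the 12 h controls, and single libraries lay between −1.25 and 0.79. The members are long, with exon lengths from 5935 bases (Drosha) to 23677 bases (Tnrc6b), so values with this index as a covariate are given beside calls and directions that it changed.

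Levels can be set against each other only per length. Averaged over the 24 libraries, Drosha stood highest at 13.8 ± 1.71 CPM per kilobase of exon, followed by Ago2 at 11.5 ± 2.25, Ago1 at 10.8 ± 2.44 and Dgcr8 at 8.64 ± 2.59 CPM per kilobase. Tnrc6a, Dicer1, Tnrc6b and Tnrc6c averaged 7.39 ± 3.08, 5.90 ± 1.21, 5.70 ± 1.65 and 4.61 ± 0.954 CPM per kilobase. Ago3 at 2.35 ± 0.643 and Ago4 at 1.04 ± 0.281 CPM per kilobase were the lowest (SD over 24 libraries of all groups). The ranges of every pair of neighbours in this order overlapped, and the order differed between groups. With siNC and hCG, Ago2 averaged above Ago1, at 12.5 and 11.5 CPM per kilobase at 12 h and 13.5 and 9.13 CPM per kilobase at 4 h. In controls Ago1 averaged above Ago2, at 15.2 and 10.7 CPM per kilobase at 12 h and 10.3 and 8.55 CPM per kilobase at 4 h, and at 12 h also above Drosha (14.3 CPM per kilobase). Ago4, with 0.643 to 1.61 CPM per kilobase, overlapped with no member other than Ago3, which had 1.10 to 3.19 CPM per kilobase.

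**Figure D1:**
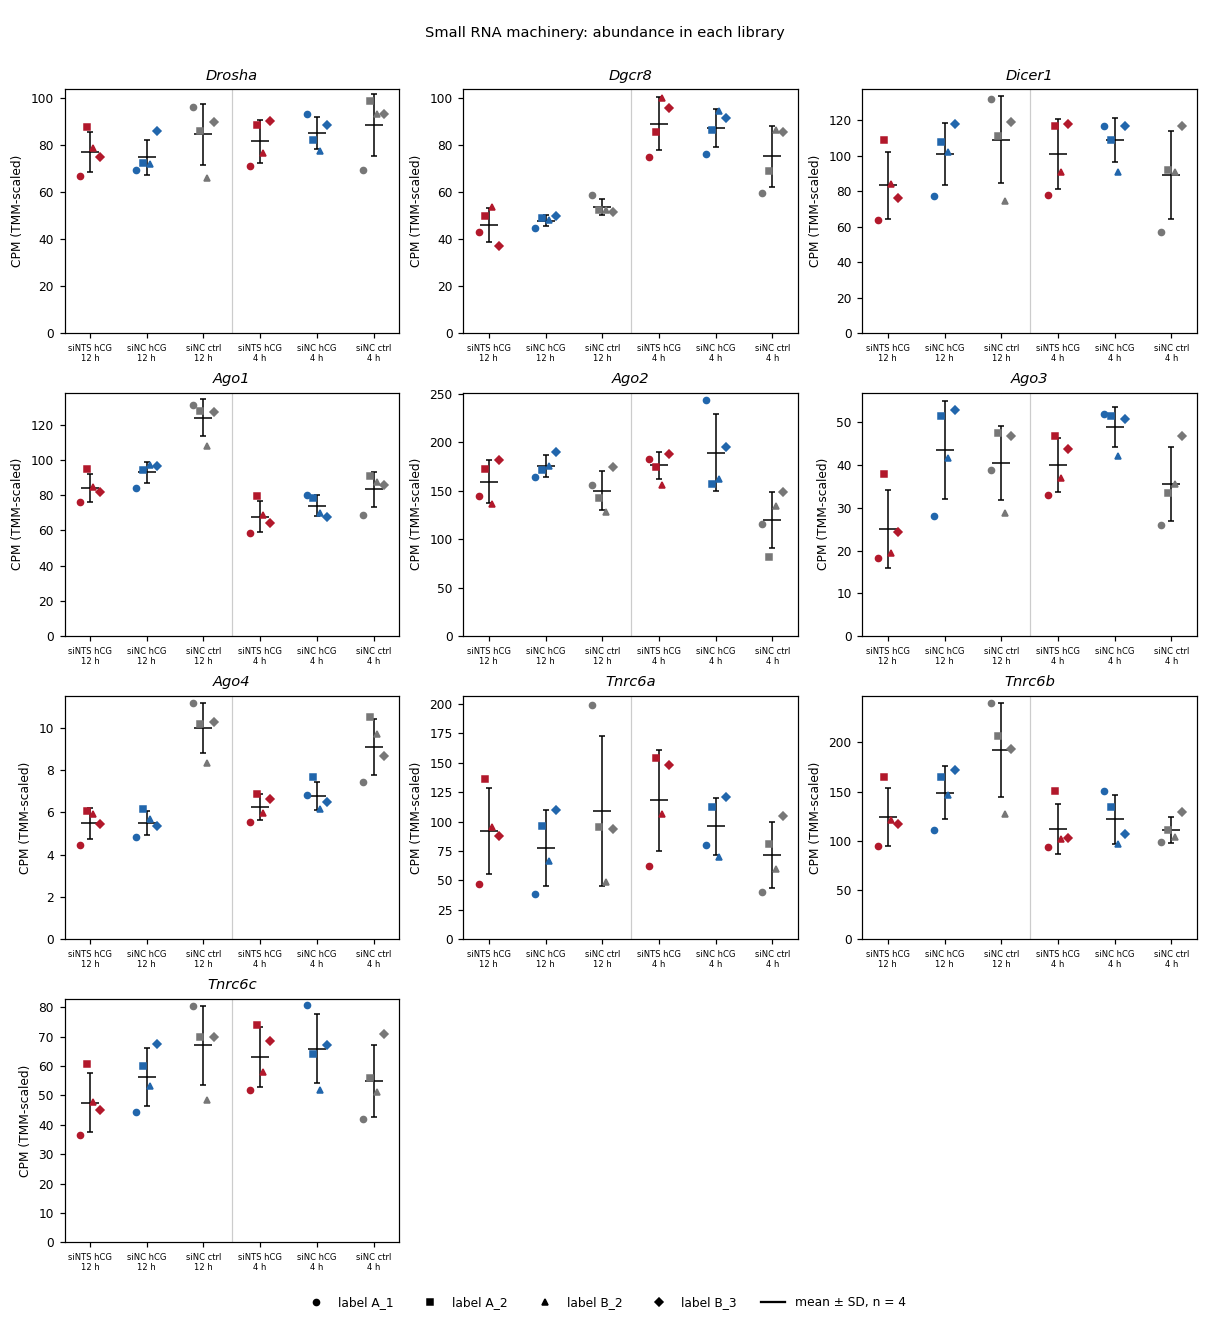
Abundance of the 10 genes in each library (y axis, CPM after TMM scaling), with the 12 h groups on the left and the 4 h groups on the right of each panel. Each point is 1 library, its shape the replicate label and its colour the group, and bars are the mean ± SD of 4 libraries. Ago4 sits at 4.83 to 6.16 CPM with hCG and at 8.35 to 11.2 CPM in controls at 12 h, and Tnrc6a spreads from 48.6 to 199 CPM within the 12 h controls.

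The first comparison asked how the ovulatory signal changed the machinery after 12 h, in siNC cells with hCG against siNC cells in plain medium. Ago4 and Ago1 were lower with hCG, and no member was called higher. Of the 10 members, 2 passed, against 16.5% of all tested genes. The median log2 difference was −0.21 over the 10 members and −0.01 over all tested genes. Ago4, the least abundant Argonaute, measured 4.83, 6.16, 5.7 and 5.34 CPM with hCG, against 11.2, 10.2, 8.35 and 10.3 CPM in the controls A_1, A_2, B_2 and B_3. The groups did not overlap, and Ago4 fell to 5.51 ± 0.563 CPM with hCG, against 10 ± 1.18 CPM in controls, a log2 fold change of −0.86 ± 0.14 (adjusted p = 9.3e-05). The Ago4 call was kept under every alternative run, with log2 values from −0.96 to −0.75. In the authors' deposited table Ago4 stood at −0.86 (adjusted p = 1.8e-05) and Ago1 at −0.42 (adjusted p = 0.0038) for this comparison. Adjusted p-values in that table appear to be taken over several comparisons together, so they are not on the scale used here.

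Ago1, an Argonaute that acts through GW182 recruitment, measured 84, 94.5, 97.2 and 96.3 CPM with hCG, against 131, 128, 108 and 127 CPM in the controls of the same labels. These groups did not overlap either, and the log2 fold change was −0.41 ± 0.11 (adjusted p = 0.011). Leaving out A_2 (adjusted p = 0.068) or B_3 (adjusted p = 0.071) ended the Ago1 call, within a range of 0.00019 to 0.071 over its alternatives. Ago2, the slicing Argonaute, averaged 175 ± 11.4 CPM with hCG and 150 ± 19.9 CPM in controls, higher under all 4 labels but not past the threshold (0.22 ± 0.16, adjusted p = 0.40). It passed only in the fit with both the replicate label and the length index (0.31, adjusted p = 0.046, within a range of 0.046 to 0.66). That fit called 38.8% of all genes. Ago3 averaged 43.5 ± 11.5 CPM with hCG and 40.5 ± 8.74 CPM in controls (0.10 ± 0.23, adjusted p = 0.80), and −0.01 without B_2.

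The other members did not pass at 12 h. Drosha averaged 75.0 ± 7.47 CPM with hCG and 84.7 ± 13 CPM in controls (−0.18 ± 0.13, adjusted p = 0.40). Dgcr8 measured 44.5, 49.1, 48 and 49.9 CPM with hCG, against 58.9, 52.4, 52.2 and 51.7 CPM in controls. Dgcr8 was thus lower with hCG in all 4 labels without overlap, though the difference was small (−0.17 ± 0.13, adjusted p = 0.42). Dicer1 averaged 101 ± 17.4 CPM with hCG and 109 ± 24.6 CPM in controls (−0.11 ± 0.21, adjusted p = 0.76), and its direction did not hold. It was 0.10 without A_1, 0.11 with the length index (adjusted p = 0.20) and 0.15 with label block and index together, where it passed as higher with hCG (adjusted p = 0.048, within a range of 0.048 to 0.89). Among the GW182 genes, Tnrc6b averaged 149 ± 27.1 CPM with hCG and 192 ± 47.7 CPM in controls (−0.37 ± 0.20, adjusted p = 0.25). Tnrc6c stood at 56.3 ± 9.88 CPM with hCG and 67.1 ± 13.5 CPM in controls (−0.25 ± 0.19, adjusted p = 0.41). For Tnrc6a the direction rested on 1 label: it averaged 77.6 ± 32.1 CPM with hCG and 109 ± 63.7 CPM in controls (−0.49 ± 0.41, adjusted p = 0.46), but was higher with hCG under 3 of 4 labels, and the value was 0.19 without A_1, where the control library held 199 CPM.

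After 4 h of hCG the Argonautes moved in opposite directions: Ago2 was higher and Ago4 lower than in controls. Of the 10 members 2 passed, against 19.1% of all tested genes. The members' median log2 difference was 0.24 and that of all tested genes −0.07. Ago2 measured 243, 157, 162 and 195 CPM with hCG, against 116, 81.6, 134 and 149 CPM in the controls A_1, A_2, B_2 and B_3. Every hCG library was above every control, and the log2 fold change was 0.66 ± 0.16 (adjusted p = 0.0061). The Ago2 difference no longer passed when A_1 was left out (0.52, adjusted p = 0.071) or in a fit of only these 8 libraries (adjusted p = 0.072), within a range of 0.00066 to 0.072 over its alternatives.

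Ago4 measured 6.82, 7.7, 6.15 and 6.51 CPM with 4 h of hCG, against 7.45, 10.5, 9.74 and 8.66 CPM in controls. It was lower under all 4 labels, with overlap of the groups only through control A_1 (−0.42 ± 0.14, adjusted p = 0.034). The Ago4 call at 4 h was lost without A_2 (adjusted p = 0.17), B_2 (adjusted p = 0.26) or B_3 (adjusted p = 0.14), with no filter on low counts (adjusted p = 0.095) and in a fit of only these 8 libraries (adjusted p = 0.12), within a range of 5.4e-05 to 0.26 over its alternatives. Ago1 averaged 74.1 ± 6.15 CPM with hCG and 83.3 ± 9.88 CPM in controls, which did not pass (−0.17 ± 0.11, adjusted p = 0.32). With the length index as a covariate the Ago1 value was −0.23 ± 0.07 (adjusted p = 0.012), in a fit that called 37.1% of all genes.

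Ago3 measured 51.9, 51.4, 42 and 50.7 CPM with hCG, against 25.9, 33.5, 35.6 and 46.9 CPM in controls at 4 h. It was higher under every label, though the groups overlapped, and the log2 fold change of 0.47 ± 0.23 did not pass (adjusted p = 0.17). With libraries compared within the same label (the label block) it passed at 0.49 ± 0.17 (adjusted p = 0.031), in a fit that called 30.1% of all genes. Adjusted p-values for Ago3 at 4 h ranged from 0.024 to 0.35 over its alternatives.

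The 6 members outside the Argonaute family did not pass at 4 h without a block or covariate. Dgcr8 averaged 87.3 ± 8.11 CPM with hCG and 75.2 ± 13.1 CPM in controls and was higher under all 4 labels (0.21 ± 0.13, adjusted p = 0.27). Its partner Drosha averaged 85.3 ± 6.91 CPM with hCG and 88.8 ± 13.2 CPM in controls (−0.06 ± 0.13, adjusted p = 0.81). It passed with label block and index together (−0.17, adjusted p = 0.021, within a range of 0.021 to 0.95), in a fit that called 45.2% of all genes, and its sign turned without A_2 (0.04) or B_2 (0.03). Dicer1 measured 109 ± 12.3 CPM with hCG and 89.2 ± 24.9 CPM in controls (0.28 ± 0.21, adjusted p = 0.39). The GW182 genes had 95.9 ± 24.5 CPM with hCG and 71.5 ± 27.9 CPM in controls for Tnrc6a (0.42 ± 0.41, adjusted p = 0.53). Tnrc6b had 122 ± 24.8 CPM with hCG and 111 ± 13.3 CPM in controls (0.14 ± 0.20, adjusted p = 0.68), at about 0 with the index (−0.0014) or without A_1 (−0.0065). Tnrc6c had 66.0 ± 11.9 CPM with hCG and 55.0 ± 12.2 CPM in controls (0.26 ± 0.19, adjusted p = 0.38).

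**Figure D2:**
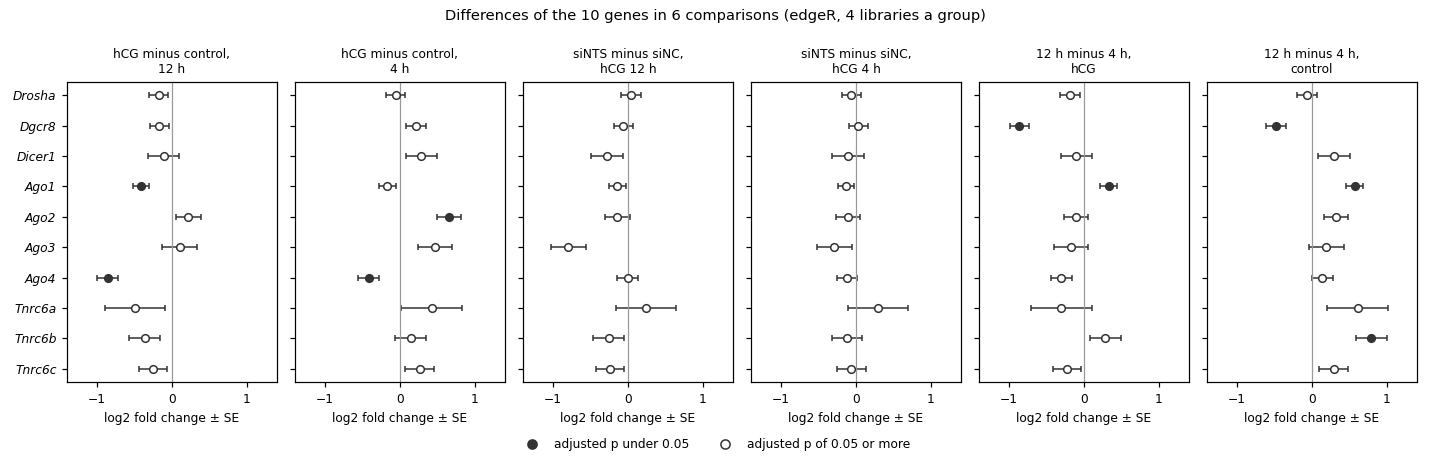
Log2 fold changes ± standard error (x axis) of the 10 genes (y axis) in 6 comparisons of 4 against 4 libraries. Filled points passed an adjusted p of 0.05 in edgeR. Filled points with hCG are Ago4 and Ago1 at 12 h and Ago2 and Ago4 at 4 h, the siRNA panels hold none, and Ago3 at 12 h stands at −0.80 ± 0.23 for siNTS minus siNC.

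Marker lists moved with hCG and with time. The summed CPM of 5 theca and interstitial markers was 562 to 931 with hCG and 1230 to 1900 in controls at 12 h, and 190 to 287 with hCG and 303 to 584 in controls at 4 h. Aldh1a1, which granulosa cells can also express, made up most of the sum, at 116 to 1830 CPM, while Insl3 and Cyp17a1 were near 0. The summed CPM of 6 immune markers was 8.28 to 11.5 with hCG and 3.4 to 4.9 in controls at 12 h. At 4 h it was 13.2 to 19.1 with hCG and 7.25 to 10.9 in controls. Of these markers Csf1r had 1.17 to 13.8 CPM, and 3 were under 1 CPM in every library, with Ptprc at most 0.395 CPM. The granulosa list of 10 markers summed to 1950 to 2220 CPM with hCG and 2410 to 2740 CPM in controls at 12 h, and to 3340 to 4580 CPM with hCG and 3410 to 4240 CPM in controls at 4 h. Between 12 h and 4 h the theca list was higher and the immune and granulosa lists lower at 12 h, with no overlap of the 2 times, both with hCG and in controls. Their part in the differences of Ago1, Ago2, Ago4, Dgcr8, Tnrc6b and the gene lists below was not tested. In bulk libraries, fewer cells of a type and less RNA per cell cannot be told apart.

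The hCG effect at 12 h minus that at 4 h was negative in sign for all 10 members, from −0.92 ± 0.57 (Tnrc6a) to −0.12 ± 0.18 (Drosha), with a median of −0.42 against 0.04 over all tested genes. None of the 10 passed in edgeR, against 3.8% of all genes. Of the members 2 had an unadjusted p under 0.05, as had 3001 of all 15405 tested genes. DESeq2 and limma-voom called 0 members each. The nearest were Ago4 at −0.44 ± 0.19 (adjusted p = 0.21), Dgcr8 at −0.38 ± 0.18 (adjusted p = 0.25) and Ago2 at −0.44 ± 0.23 (adjusted p = 0.30). The members moved together from library to library (median r of 0.73 over pairs within groups), so these signs are not separate observations. The sign ran with the length index, which was lower with hCG than in controls at 12 h and higher at 4 h. With the index as a covariate the value for Drosha was 0.09, above 0. The other 9 values stayed below 0 with it, from −0.34 (Ago2) to −0.02 (Ago3), and with the label block added those of Dicer1 (0.04) and Tnrc6a (0.0017) were also above 0.

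**Figure D3:**
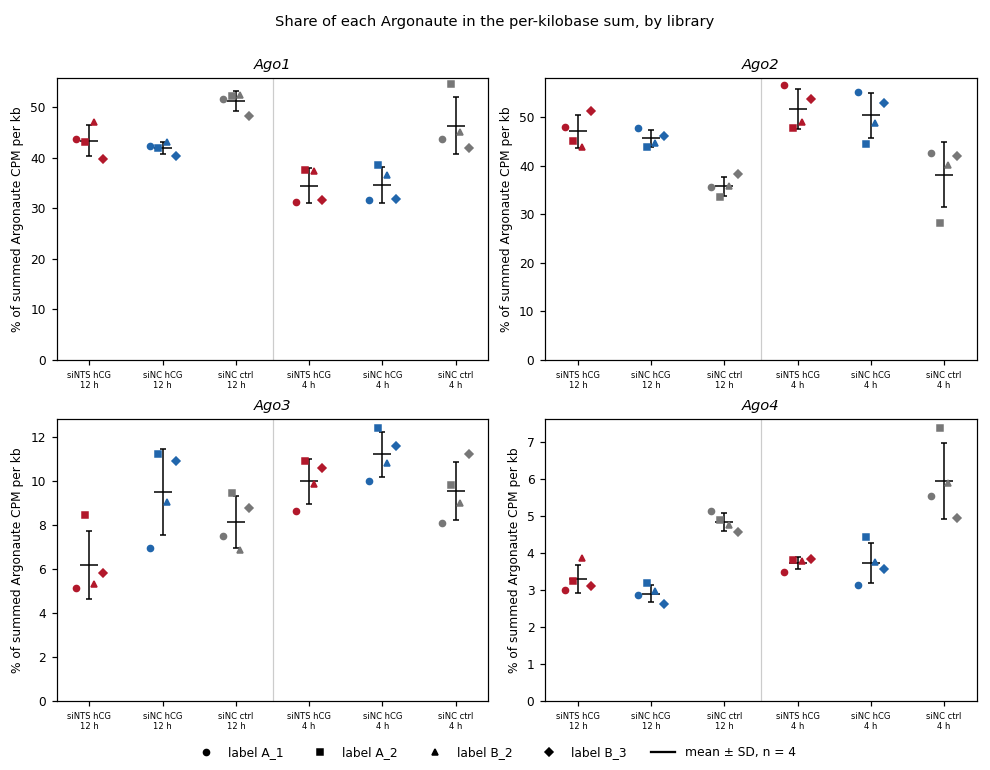
Share of each Argonaute in the sum of the 4 Argonautes' CPM per kilobase (y axis, percent) in each library, with the 12 h groups on the left and the 4 h groups on the right. Points are libraries, shapes are replicate labels, and bars are the mean ± SD of 4 libraries. The Ago2 share is above that of every control in all libraries with hCG, at both times.

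Within a library, the balance between the Argonautes differed with hCG. In the sum of the 4 Argonautes' CPM per kilobase, Ago2 made up 45.7 ± 1.74% with hCG and 35.8 ± 1.99% in controls at 12 h. At 4 h the Ago2 share was 50.4 ± 4.71% with hCG and 38.2 ± 6.72% in controls (n = 4 each). The Ago2 share was 43.8% to 47.8% with hCG and 33.5% to 38.4% in controls at 12 h, and 44.6% to 55.3% with hCG and 28.3% to 42.6% in controls at 4 h, so the groups did not overlap at either time. The Ago1 share was 41.9 ± 1.18% with hCG and 51.2 ± 1.94% in controls at 12 h, and 34.6 ± 3.50% with hCG and 46.3 ± 5.64% in controls at 4 h. Ago4 held 2.90 ± 0.239% with hCG and 4.83 ± 0.242% in controls at 12 h, and 3.72 ± 0.538% with hCG and 5.93 ± 1.03% in controls at 4 h. Ago1 and Ago4 shares also did not overlap between hCG and control libraries at either time. These shares are a description of the transcripts with no test, they rest on the annotated exon lengths, and they do not measure protein.

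Ago3, Ago1 and Ago4 lie next to each other on the minus strand of chromosome 4 (126326994 to 126431670, 126435012 to 126468707 and 126489487 to 126533586 on GRCm38.p6), while Ago2 lies on chromosome 15 (73101625 to 73184947). The luteinizing hormone receptor is known to signal through cyclic AMP and the factor CREB, whose binding motif TGACGTCA has the half-site TGACG. The RefSeq promoter table (GRCm38.p6; 250 bases before to 50 after a start) had 11 windows for 9 of the 10 members. Ago2, the member called higher with hCG at 4 h, had no window and is not covered by these counts. TGACGTCA was in 0 of the 11 and in 1.79% of all 32851 windows, both strands searched. TGACG, which also lies inside the longer motif, was in 5 of the 11 and in 20.8% of all windows. A different motif, the GC box GGGCGG, was in 7 of the 11 and in 35.7% of all windows. The members' windows held 44.7% (Tnrc6a) to 83.3% (Ago4) G and C, and the Ago1 windows overlapped each other. None of these shares was tested. The matches of the chromosome 4 cluster are shown because 2 of its 3 genes were called with hCG, with the half-site, or its reverse complement CGTCA, in capitals and 12 bases on either side. The Ago1 windows held none, and a match is a description of the letters, not a bound site.
Ago4, chr4:126533627-126533655, minus strand: cgggcgcgcgccTGACGcgtcctctgggc
Ago3, chr4:126429717-126429745, minus strand: cgggattgtcgcCGTCAggcacagcgggt
Ago3, chr4:126429550-126429578, minus strand: ggagagcggaagTGACGcgagcgggcttc

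The second comparison asked what lowering Nts changed in the machinery, in cells with siNTS and hCG against cells with siNC and hCG. None of the 10 members passed in edgeR at either time. At 12 h 0.162% of all tested genes passed, and at 4 h 0.00649%. At an unadjusted p under 0.05, 1 member passed at 12 h (Ago3) and 0 at 4 h. Of all 15405 tested genes, 560 at 12 h and 131 at 4 h had such a p. DESeq2 and limma-voom called 0 members at both times. The members' median log2 difference was −0.14 at 12 h and −0.11 at 4 h, against 0.02 and 0.01 over all tested genes. Values ran from −0.80 (Ago3) to 0.24 (Tnrc6a) at 12 h and from −0.29 (Ago3) to 0.29 (Tnrc6a) at 4 h.

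Ago3 was the member nearest to a call. After 12 h of hCG it measured 18.2, 38, 19.5 and 24.4 CPM with siNTS, against 28, 51.4, 41.7 and 52.9 CPM with siNC under the labels A_1, A_2, B_2 and B_3. Ago3 was lower with siNTS under each label, although the groups overlapped because the A_1 libraries were low in both. The log2 fold change was −0.80 ± 0.23 (adjusted p = 0.43). Under the label block it passed at −0.81 ± 0.17 (adjusted p = 0.025), in a fit that called 0.591% of all genes. In the authors' deposited table the log2 fold change was −0.82 with an adjusted p of 0.0043, among 331 genes with an adjusted p under 0.05.

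The Ago3 call therefore depended on the fit and on the libraries used. Under the block it was kept without A_1 (−0.85, adjusted p = 0.011). It was lost without B_2 (−0.72, adjusted p = 0.46), without B_3 (−0.71, adjusted p = 0.54) and, just at the threshold, without A_2 (−0.96, adjusted p = 0.05). The length index averaged lower with siNTS than with siNC at 12 h. With the index as a covariate Ago3 stood at −0.75 ± 0.12 (adjusted p = 0.0031) in a fit that called 1.05% of all genes. Adjusted p-values for Ago3 at 12 h ranged from 0.00035 to 1 over its alternatives, with log2 values from −0.98 to −0.68. In the sum of the Argonautes per kilobase, Ago3 made up 5.12%, 8.44%, 5.31% and 5.81% with siNTS and 6.93%, 11.2%, 9.06% and 10.9% with siNC.

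**Figure D4:**
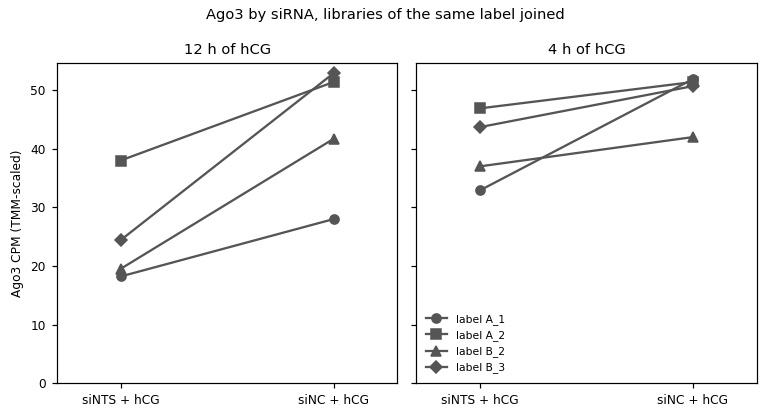
Ago3 abundance (y axis, CPM) with siNTS on the left and siNC on the right of each panel, after 12 h (left panel) and 4 h (right panel) of hCG. Lines join libraries of the same replicate label. All 8 lines are lower at siNTS, with 24.4 CPM for siNTS and 52.9 CPM for siNC under B_3 at 12 h and 46.9 CPM for siNTS and 51.4 CPM for siNC under A_2 at 4 h.

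After 4 h of hCG Ago3 measured 32.9, 46.9, 37 and 43.7 CPM with siNTS, against 51.9, 51.4, 42 and 50.7 CPM with siNC. It was again lower under each label, but the groups overlapped and the value was −0.29 ± 0.23 (adjusted p = 1). The siNTS effect on Ago3 at 12 h minus that at 4 h was −0.51 ± 0.33 (adjusted p = 1), and 0% of all genes passed for this difference in edgeR. Of the 10 members 0 passed and 0 had an unadjusted p under 0.05 for it, against 116 of all 15405 tested genes. DESeq2 and limma-voom called 0 members. Tnrc6a averaged 91.6 ± 36.5 CPM with siNTS and 77.6 ± 32.1 CPM with siNC at 12 h (0.24 ± 0.41, adjusted p = 1), and 118 ± 42.8 CPM with siNTS and 95.9 ± 24.5 CPM with siNC at 4 h (0.29 ± 0.41, adjusted p = 1). Dicer1 averaged 83.3 ± 19.0 CPM with siNTS and 101 ± 17.4 CPM with siNC at 12 h (−0.28 ± 0.21, adjusted p = 1), and passed only with the label block and the length index together (−0.22, adjusted p = 0.031, within a range of 0.031 to 1), in a fit that called 2.88% of all genes. Ago2, which carries out siRNA slicing, averaged 159 ± 22.1 CPM with siNTS and 175 ± 11.4 CPM with siNC at 12 h, and 176 ± 14.0 CPM with siNTS and 189 ± 39.7 CPM with siNC at 4 h (−0.11 ± 0.16, adjusted p = 1; 0.02 without A_1).

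The third comparison set 12 h against 4 h, and it shares its libraries with the comparisons above, as the siNTS comparison shares the siNC libraries with hCG. Dgcr8 was lower and Ago1 higher at the later time, with hCG and without, and the theca, immune and granulosa marker sums given above also separated the 2 times. In cells with siNC and hCG, 2 of the 10 members passed, against 43.2% of all tested genes. Dgcr8 measured 44.5, 49.1, 48 and 49.9 CPM at 12 h, against 76.2, 86.4, 94.7 and 91.7 CPM at 4 h. The 2 times did not overlap, and the log2 fold change of −0.87 ± 0.13 (adjusted p = 1.4e-05) kept its call under every alternative run. Ago1 measured 84, 94.5, 97.2 and 96.3 CPM at 12 h, against 80.3, 78.5, 69.9 and 67.9 CPM at 4 h. It was higher at 12 h under each label without overlap (0.33 ± 0.11, adjusted p = 0.019), and the call was lost without B_2 (adjusted p = 0.21) or B_3 (adjusted p = 0.18), within a range of 2.9e-06 to 0.21.

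Ago4 averaged 5.51 ± 0.563 CPM at 12 h and 6.79 ± 0.664 CPM at 4 h of hCG and was lower at 12 h under each label (−0.30 ± 0.14, adjusted p = 0.08). It passed with the label block (−0.30 ± 0.12, adjusted p = 0.032) in a fit that called 53.3% of all genes, with the length index (−0.23, adjusted p = 0.045) in a fit that called 62.4%, with RLE size factors (adjusted p = 0.049) and with DESeq2 (adjusted p = 0.03), within a range of 0.027 to 0.18. Tnrc6b averaged 149 ± 27.1 CPM at 12 h and 122 ± 24.8 CPM at 4 h of hCG (0.29 ± 0.20, adjusted p = 0.28). Tnrc6b passed without A_1 (0.51, adjusted p = 0.044) and with the length index (0.39 ± 0.13, adjusted p = 0.014), within a range of 0.00043 to 0.74.

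In control cells 3 of the 10 members passed between 12 h and 4 h, against 30.8% of all tested genes. Ago1 measured 131, 128, 108 and 127 CPM at 12 h, against 68.8, 91.1, 87.4 and 85.8 CPM at 4 h. The times did not overlap (0.57 ± 0.11, adjusted p = 0.00046), and the Ago1 call was kept under every alternative run. Tnrc6b, one of the GW182 proteins, measured 240, 207, 127 and 193 CPM at 12 h, against 98.4, 111, 104 and 129 CPM at 4 h. It was higher at 12 h under each label, with an overlap through B_2 (0.79 ± 0.21, adjusted p = 0.0055). Dgcr8 measured 58.9, 52.4, 52.2 and 51.7 CPM at 12 h, against 59.7, 69.1, 86.4 and 85.7 CPM at 4 h, lower at 12 h without overlap (−0.48 ± 0.13, adjusted p = 0.0066). The Dgcr8 call was lost without B_2 (adjusted p = 0.071) or B_3 (adjusted p = 0.062), within a range of 4.4e-06 to 0.071. Ago2 averaged 150 ± 19.9 CPM at 12 h and 120 ± 29 CPM at 4 h in controls (0.32 ± 0.16, adjusted p = 0.14). Tnrc6a averaged 109 ± 63.7 CPM at 12 h and 71.5 ± 27.9 CPM at 4 h (0.61 ± 0.41, adjusted p = 0.27), and the sign turned without A_1 (−0.03). Drosha averaged 84.7 ± 13 CPM at 12 h and 88.8 ± 13.2 CPM at 4 h in controls (−0.07 ± 0.13, adjusted p = 0.72). With the length index it passed as lower at 12 h (−0.19 ± 0.07, adjusted p = 0.021, within a range of 0.0038 to 0.96), in a fit that called 48.2% of all genes, while the sign turned without B_2 (0.05). Times and culture periods cannot be told apart here, since each library was harvested once.

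Within groups, the members moved together from library to library. Over the 45 pairs of members the correlation of deviations from the group means had a median of 0.73, from −0.01 for Ago2 with Ago4 and with Dgcr8 to 0.95 for Dicer1 with Tnrc6c (Pearson, 24 libraries). Pairs of other long genes were not examined, so this shared movement is not shown to be particular to the members. The members' deviations followed the length index, which was built from other genes. Pearson's r with the index was 0.97 for Dicer1 (Spearman's rho 0.94), 0.95 for Tnrc6a (rho 0.95), 0.90 for Tnrc6c (rho 0.85), 0.89 for Drosha (rho 0.84), 0.85 for Ago3 (rho 0.78) and 0.80 for Ago4 (rho 0.66). It was 0.78 for Ago1 (rho 0.62), 0.76 for Tnrc6b (rho 0.73), 0.57 for Dgcr8 (rho 0.54) and 0.30 for Ago2 (rho 0.40). The 24 libraries share labels across groups and are not independent, so these values are a description with no p.

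Without the 2 libraries farthest from the median index, control A_1 at 4 h and siNTS A_1 at 12 h, r was 0.96 for Dicer1, 0.95 for Tnrc6a, 0.46 for Dgcr8 and 0.30 for Ago2. Within single labels, over 6 libraries each, r lay between 0.91 and 1 for Dicer1 and between 0.89 and 0.95 for Tnrc6a, but between −0.34 (B_3) and 0.98 (A_1) for Ago4. Most of the spread between replicates of Dicer1 and Tnrc6a thus ran along the index, and Ago2 was the member least related to it. Fewer transcripts per cell and a change in which fragments were captured cannot be told apart in these values.

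**Figure D5:**
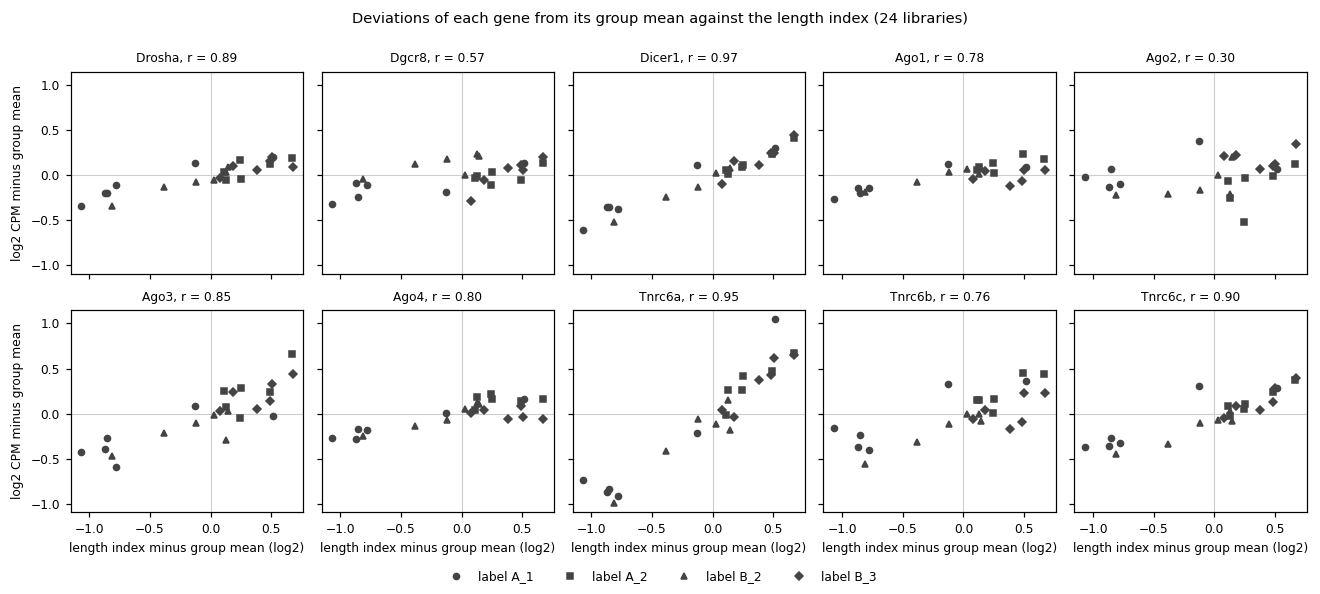
Deviation of each gene's log2 CPM from its group mean (y axis) against the deviation of the length index from its group mean (x axis, log2), 24 libraries per panel with the replicate label as the shape. Dicer1 (r = 0.97) and Tnrc6a (r = 0.95) lie along a line, while Ago2 (r = 0.30) scatters.

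The genes whose log2 CPM tracked the called Argonautes most closely over the 24 libraries, among the 10798 most abundant genes (mean log2 CPM of 2 or more), are given as a description. For Ago4 they were Fbxo32 (Pearson's r 0.955), Angpt2 (0.947) and Pik3r1 (0.947). For Ago1 they were Greb1l (0.957), Foxn3 (0.953) and Nfia (0.953). For Ago2 they were Sec24a (0.881), Elf4 (0.848) and Ticam1 (0.831). Fbxo32 encodes a muscle atrophy ubiquitin ligase subunit, Angpt2 a ligand of the Tie2 receptor and Sec24a a coat protein of secretory vesicles. These correlations were taken across all 6 groups, so differences with hCG and with time enter them. Shared labels, depth and the length index enter them as well.

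Genes that act around the 10 members were followed in 7 lists, which together had 124 tested genes. With hCG for 12 h, 10 of the 124 passed, and with hCG for 4 h 16 passed. These are 8.06% at 12 h and 12.9% at 4 h, against 16.5% and 19.1% of all tested genes. Under the label block 23 passed at 12 h (18.5%, against 27% of all genes) and 29 at 4 h (23.4%, against 30.1%). Of the genes for microRNA processing and export, 0 were higher and 2 lower of 16 tested at 12 h, and 2 were higher and 2 lower at 4 h. At 12 h these were Smad3, a TGF-beta signal transducer that binds the microprocessor, with 72.3 ± 6.53 CPM with hCG and 129 ± 12.4 CPM in controls (−0.83 ± 0.17, adjusted p = 0.001), and the splicing factor Rbfox2 (−0.37 ± 0.10, adjusted p = 0.01). At 4 h, Adarb1, an enzyme that edits double-stranded RNA, measured 23.8 ± 2.13 CPM with hCG and 10.5 ± 2.58 CPM in controls (1.18 ± 0.26, adjusted p = 0.0024). The Dicer partner Prkra had 23.5 ± 2.75 CPM with hCG and 37.2 ± 11 CPM in controls (−0.66 ± 0.20, adjusted p = 0.026). The RNA helicase Ddx17, a microprocessor cofactor, rose by 0.38 ± 0.13 (adjusted p = 0.035), and the RNA methyltransferase gene Mettl3 fell by 0.31 ± 0.09 on the log2 scale (adjusted p = 0.021).

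Of the RISC loading and accessory genes, 1 was higher and 2 lower of 24 tested at 12 h, and 0 were higher and 1 lower at 4 h. Mov10, a helicase found in Argonaute complexes, was lower with hCG at both times, with 53.9 ± 5.99 CPM with hCG and 77.5 ± 3.68 CPM in controls at 12 h (−0.52 ± 0.12, adjusted p = 0.0025). At 4 h Mov10 had 29.2 ± 4.33 CPM with hCG and 42.6 ± 5.00 CPM in controls (−0.55 ± 0.12, adjusted p = 0.0019). The LIM protein gene Ajuba measured 73.3 ± 10.4 CPM with hCG and 131 ± 21.6 CPM in controls at 12 h (−0.84 ± 0.17, adjusted p = 0.0011). Fkbp5, a co-chaperone of the Hsp90 system that loads Argonautes, had 981 ± 84.5 CPM with hCG and 659 ± 62.9 CPM in controls at 12 h (0.57 ± 0.17, adjusted p = 0.018). The median of this list was 0.03 at 12 h and 0.05 at 4 h, against −0.01 and −0.07 over all tested genes.

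Of the 33 deadenylation and decapping genes that act downstream of GW182, 1 was higher and 1 lower at each time. At 12 h, the deadenylase subunit gene Pan2 fell to 23.0 ± 3.65 CPM with hCG, against 35.8 ± 9.74 CPM in controls (−0.64 ± 0.20, adjusted p = 0.029), and Btg2, which binds deadenylases, had 88.7 ± 13.7 CPM with hCG and 48.5 ± 25.4 CPM in controls (0.87 ± 0.30, adjusted p = 0.047). At 4 h, the decapping gene Dcp1b was lower (−0.61 ± 0.14, adjusted p = 0.0039) and the decapping activator Patl1 higher (0.53 ± 0.16, adjusted p = 0.02). Of 14 genes for microRNA tailing and turnover, 1 was higher and 0 lower at 12 h, namely Pnpt1 (0.31 ± 0.10, adjusted p = 0.036). At 4 h 1 was higher and 2 lower. Dis3l2, an exonuclease that degrades uridylated let-7 precursors, measured 15.7 ± 1.69 CPM with hCG and 24.8 ± 4.47 CPM in controls (−0.66 ± 0.12, adjusted p = 0.00027). Parn had −0.48 ± 0.13 (adjusted p = 0.0094) and Tent4b 0.47 ± 0.16 (adjusted p = 0.039).

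Of the piRNA genes, 11 of 18 were tested and only Tdrd5, a tudor domain protein of germ cells, passed with hCG. It measured 19.4 ± 4.21 CPM with hCG and 88.5 ± 19.6 CPM in controls at 12 h (−2.19 ± 0.25, adjusted p = 1.6e-06), and 9.33 ± 2.36 CPM with hCG and 54.7 ± 13.9 CPM in controls at 4 h (−2.55 ± 0.26, adjusted p = 3.8e-07). Among 12 tested sensors of double-stranded RNA, which can also recognise transfected duplexes, 0 were higher and 1 lower at 12 h and 0 higher and 3 lower at 4 h. At 4 h Ddx58, the gene for the RNA sensor RIG-I, had 10.5 ± 3.02 CPM with hCG and 19.0 ± 3.17 CPM in controls (−0.85 ± 0.25, adjusted p = 0.02). Tlr3, a receptor for double-stranded RNA, stood at −0.67 ± 0.23 (adjusted p = 0.046) at 4 h. Of 15 tested nuclear partners of the microprocessor, 0 passed with 12 h of hCG in edgeR, and 2 were higher at 4 h: Ncbp1 of the cap-binding complex (0.54 ± 0.15, adjusted p = 0.012) and Tardbp (0.38 ± 0.11, adjusted p = 0.014).

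Between siNTS and siNC, 0 of the 124 list genes passed in edgeR at either time, and DESeq2, limma-voom and the label block called 0. At an unadjusted p under 0.05, 1 passed at 12 h and 0 at 4 h, against 560 and 131 of all 15405 tested genes. The sensors of double-stranded RNA had a median of −0.14 at 12 h and −0.19 at 4 h for siNTS minus siNC, against 0.02 and 0.01 over all tested genes.

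Over time with hCG, 49 of the 124 list genes passed between 12 h and 4 h, or 39.5% against 43.2% of all genes, and in controls 27 passed, or 21.8% against 30.8%. Under the label block 66 passed with hCG, or 53.2% against 53.3% of all genes, and 43 passed in controls, or 34.7% against 43.3%. Of the processing and export genes 1 was higher and 7 lower at 12 h with hCG. Xpo5, which carries precursor hairpins out of the nucleus, had 100 ± 7.19 CPM at 12 h and 153 ± 13.1 CPM at 4 h of hCG (−0.61 ± 0.11, adjusted p = 6.9e-05), and 102 ± 11.2 CPM at 12 h and 138 ± 17.9 CPM at 4 h in controls (−0.43 ± 0.11, adjusted p = 0.0034). Adarb1 had 5.16 ± 2.03 CPM at 12 h and 23.8 ± 2.13 CPM at 4 h of hCG (−2.20 ± 0.27, adjusted p = 1.1e-06), and 4.27 ± 0.52 CPM at 12 h and 10.5 ± 2.58 CPM at 4 h in controls (−1.30 ± 0.26, adjusted p = 0.00075). Of the RISC loading genes 2 were higher and 6 lower at 12 h with hCG. Fkbp5 had 981 ± 84.5 CPM at 12 h and 386 ± 74 CPM at 4 h (1.35 ± 0.17, adjusted p = 1.4e-06), and Mov10 53.9 ± 5.99 CPM at 12 h and 29.2 ± 4.33 CPM at 4 h (0.88 ± 0.12, adjusted p = 3e-06). Of the deadenylation and decapping genes 2 were higher and 7 lower, with Dcp1b at 0.74 ± 0.14 (adjusted p = 0.00022) and Btg1, an antiproliferative relative of Btg2, at −0.95 ± 0.20 (adjusted p = 0.0005). Of the nuclear partners 1 was higher and 6 lower, with Ncbp1 at −0.95 ± 0.15 (adjusted p = 2.2e-05). Of the 11 tested piRNA pathway genes, Tdrd5 (1.06 ± 0.25, adjusted p = 0.0014) and Exd1 (1.46 ± 0.37, adjusted p = 0.0029) were higher, and Tdrd1 (−2.98 ± 0.69, adjusted p = 0.0014) and Piwil2 (−0.97 ± 0.35, adjusted p = 0.027) lower. Further genes of these lists that were lower at 12 h with hCG were Ddx20 (−0.66), Wtip (−0.79), Edc3 (−0.53), Pabpc1 (−0.60), Eri1 (−0.40), Tardbp (−0.53), Hnrnpa2b1 (−0.34), Rbfox2 (−0.40) and Ddx17 (−0.45), and Irf7 (1.24) and Parn (0.61) were higher, with adjusted p of 0.013 or less for each. Of the turnover genes 3 were higher and 5 lower at 12 h with hCG, led by Dis3l2 with 39.3 ± 0.747 CPM at 12 h and 15.7 ± 1.69 CPM at 4 h (1.33 ± 0.12, adjusted p = 1.5e-08). Its relative Dis3 had 29.9 ± 3.22 CPM at 12 h and 61.5 ± 2.70 CPM at 4 h (−1.04 ± 0.12, adjusted p = 6.7e-07). Of the sensors of double-stranded RNA 5 were higher and 0 lower at 12 h with hCG, among them Ddx58 (1.46 ± 0.25, adjusted p = 7.2e-05) and Ifih1 (1.53 ± 0.36, adjusted p = 0.0017).

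The libraries measured polyadenylated RNA and not mature microRNAs, so the microRNA loci appear mostly through host transcripts. Of 1166 rows whose symbol starts with Mir and names a microRNA, 5 were tested. They were 4 host transcripts and 1 single hairpin row, Mir6236, with at most 3.99 CPM in a library. In edgeR without a block none of these 5 passed for hCG or siNTS, and 3 host transcripts were lower at 12 h than at 4 h of hCG. Over all tested genes 43.2% passed for that time comparison. Under the label block Mir22hg (0.47, adjusted p = 0.048) and Mir100hg (1.39, adjusted p = 0.039) also passed for hCG at 4 h, and Mir17hg (−1.11, adjusted p = 0.043) and Mir99ahg (−0.94, adjusted p = 0.045) for hCG at 12 h. That fit called 30.1% of all genes for hCG at 4 h and 27% at 12 h. With the length index added to the block, Mir99ahg still passed for hCG at 12 h (−0.99, adjusted p = 0.036). Mir17hg at 12 h (−0.42, adjusted p = 0.13) did not, nor did Mir22hg (0.35, adjusted p = 0.056) and Mir100hg (1.22, adjusted p = 0.058) at 4 h. The fit with both called 45.2% of all genes at 4 h and 38.8% at 12 h. The block also called Mir99ahg lower at 12 h than at 4 h of hCG (−0.86, adjusted p = 0.04), against an adjusted p of 0.054 without it. For this comparison the block called 53.3% of all genes. Mir22hg, the host of miR-22, measured 11.8, 18.9, 13.6 and 18.7 CPM at 12 h, against 21.4, 31.8, 25.1 and 39.2 CPM at 4 h (−0.90 ± 0.21, adjusted p = 0.0013). Mir17hg, the host of the miR-17 to miR-92a cluster, measured 1.03, 2.81, 1.19 and 2.55 CPM at 12 h, against 5.68, 8.86, 2.98 and 7.22 CPM at 4 h (−1.70 ± 0.53, adjusted p = 0.013). The times did not overlap in either host. Mir100hg was near the limit of counting, with 0.0272, 0.0698, 0.122 and 0.24 CPM at 12 h, against overlapping values of 0.473, 0.29, 0.157 and 1.11 CPM at 4 h (−2.10 ± 0.75, adjusted p = 0.028). Mature products are what the machinery would make from these hosts. Within the RefSeq intervals (GRCm38.p6) lay 2 for Mir22hg, 2 for Mir17hg and 5 for Mir100hg. Those of Mir17hg came from 1 hairpin, Mir92-1, and no other hairpin of its cluster was found in the interval used. Of these products only 4 are shown, with the seed, bases 2 to 8, in capitals.
miR-22-3p, chr11:75463772-75463793, plus strand: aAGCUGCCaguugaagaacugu
miR-92a-3p, chr14:115044476-115044496, plus strand: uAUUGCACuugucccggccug
miR-100-5p, chr9:41531437-41531458, plus strand: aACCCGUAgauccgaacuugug
miR-125b-5p, chr9:41581940-41581961, plus strand: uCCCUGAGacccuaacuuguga
The 4 seeds differ from each other. The levels of these mature microRNAs were not measured.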

How the data were processed

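The authors deposited estimated counts for 24 stranded mRNA libraries, unscaled, and their own comparison tables, which hold log2 fold changes, mean log2 CPM, p-values and adjusted p-values. The submitters' processing notes list Salmon 1.4.0 along with R 4.1.0, edgeR, limma and the build GRCm39, with no roles. Salmon divides reads of similar transcripts by estimate. A further 96 columns of log2 CPM per library were not used. The estimated counts, rounded here, were filtered with filterByExpr (15405 of 39253 genes, 99.97% of counts), scaled with TMM and tested in 1 quasi-likelihood fit of all libraries without a block (edgeR 4.0.16 in R 4.3.3), with Benjamini-Hochberg adjustment over all tested genes per contrast. A standard error is the fold change (log2) over the square root of F. Exon lengths are exon unions of GENCODE M21, which covered 98.1% of the genes considered for the length index. The fitting steps were tested on simulated data.

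The labels give each replicate label a culture date (A_2 and B_2 share one), so labels pair libraries across groups. Deviations from group means correlated above 0.1 in 21 of 24 same-label pairs (median 0.542, lowest −0.692, highest 0.957). Chi-square per degree of freedom was 17 to 320 in 36 pairs of libraries within groups, so no library looked like a repeat. The labels do not state that each label is a separate pool of mice, so the p-values may cover technical spread only.

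The members, lists and tests were chosen with earlier results of these data known. All 10 members are named, as are called genes of a list from the 4 with the smallest adjusted p per contrast (over time in controls only some of these), and the 3 genes with the highest correlation to each member called with hCG. Alternatives were the label block, RLE factors, no filter, a filter on mean CPM, DESeq2 1.42.0, limma-voom (limma 3.58.1), only the libraries of a contrast, and each label left out. Fits with the length index, alone or with the block, and the block with a label left out were added after seeing the data. Positions and sequences are from RefSeq on GRCm38.p6, and none was converted to the authors' build. Values of some list genes are not reported here.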

Additional observations from a re-analysis of the deposited data

Results flagged for a closer look

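In 3 of 60 sets of 4 libraries, 1 value lay far from the other 3 by Dixon's test at the 95% level, which chance gives in about 1 of 20 sets. Dgcr8 stood at 58.9 CPM in the 12 h control library A_1, above the 3 others. Ago3 stood at 42 CPM in siNC library B_2 after 4 h of hCG, below the 3 others. Tnrc6b stood at 151 CPM in siNTS library A_2 after 4 h of hCG, above the 3 others.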

How the results depend on the processing

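Over all 10 members and 8 contrasts, 1044 log2 values were recomputed under alternatives: 964 kept their direction and side of the threshold, 13 lost a call, 21 gained one and 46 changed sign, none of them called in the reported fit. Among values given above, the sign turned with hCG at 12 h for Tnrc6a (0.0484 with the replicate block and length index together; −0.77 to 0.19 leaving out a label), Dicer1 (0.1141 with the index, 0.1454 with both; −0.26 to 0.0999 leaving out a label) and Ago3 (−0.0147 to 0.24 leaving out a label). At 4 h it turned for Tnrc6b (−0.0014 with the index, −0.0632 with both; −0.0065 to 0.31 leaving out a label) and Drosha (−0.18 to 0.0428 leaving out a label, 0.0255 without B_2). For siNTS at 4 h it turned for Ago2 (−0.19 to 0.0202 leaving out a label). Over time in controls it turned for Tnrc6a (−0.0027 with both; −0.0301 without A_1, up to 0.92 without another label) and Drosha (−0.22 to 0.0466 leaving out a label), and in the difference of hCG effects for Tnrc6a (0.0017 with both), Dicer1 (0.0415 with both) and Drosha (0.0899 with the index, 0.15 with both; −0.29 to 0.11 leaving out a label). With hCG at 4 h, 2 members passed, but 1 with no filter on low counts, 0 in a fit of only the libraries of the contrast, 5 with block and index, and 1 without each label. With hCG at 12 h, 2 passed, 4 with block and index, and 1 to 2 leaving out a label. For siNTS at 12 h, 0 passed, 1 with the replicate block, 1 with the index and 2 with both. Over time with hCG, 2 passed, 4 with the index, 4 with block and index, and 1 to 3 leaving out a label. The replicate block changed no other call of a member than Ago3 at 4 h of hCG, Ago3 for siNTS at 12 h and Ago4 over time with hCG.

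Counts over all genes moved more. For hCG at 4 h, 2936 genes passed, 4642 with the block, 5712 with the index, 6967 with both, 1770 with only those libraries, 1283 without A_2 and 1693 without B_2. For hCG at 12 h, 2548 passed, 4164 with the block, 4785 with the index, 5981 with both, 1268 without A_2 and 1583 without B_2. For siNTS at 12 h, 25 passed, 91 with the block, 162 with the index, 444 with both, 61 with DESeq2, 38 at a mean of 1 CPM, 14 with no filter, 1 with only those libraries, 40 without A_1 and 0 without A_2, B_2 or B_3. For siNTS at 4 h, 1 passed, 3 with the block, 5 with the index, 24 with both, 6 with DESeq2, 3 without A_1 and 0 without each other label. Over time in controls 4750 passed, 7423 with the index, 8381 with both and 3137 without A_2, and with hCG 6652 passed, 10380 with both. For the difference of hCG effects 586 passed, 2174 with the block, 1689 with the index, 2911 with both, 1061 with DESeq2, 385 with no filter, 314 without A_1, 69 without A_2 and 161 without B_2; for that of siNTS effects 0 passed, 1 with DESeq2 and 5 with block and index. The causes were not tested. Ago4, with as few as 145 counts in a library, had the least depth of the members.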
